A study of Mus musculus with 12 samples.

Results

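Haemoglobin messenger RNA was measured in mouse dorsal root ganglia (DRG) through 7 gene symbols, the globin genes Hba-a1, Hba-a2, Hbb-bs and Hbb-bt and the erythroid genes Alas2, Slc4a1 and Epb42. The symbols were looked up by name in the deposited expression table and matched 9 of its 24490 rows, of which 7 held a value above 0. They had been selected on their FPKM in the MACS-sorted samples, where it stood out from the other samples, so their difference between MACS-sorted and other samples is given as a description, with no test. RNA came from adult C57Bl/6 mice without transgene or treatment, in 3 groups of 4 samples: intact DRG that were frozen directly, unsorted DRG (Dissociated in the plots) that were dispersed with enzymes and collected acutely, and MACS-sorted neurons, which passed a magnetic column that held back cells labelled with antibodies against non-neuronal cells. Each intact sample was a single animal (1 mouse), whereas ganglia of 2 mice were pooled for each unsorted sample and of 8 mice for each sorted one. Values are FPKM, fragments scaled to the length of the transcript and to the number of mapped fragments. FPKM summed to between 283676 and 345341 per intact sample, 302657 and 307782 per unsorted sample and 297414 and 318807 per MACS-sorted sample, and the spacing of low values gave a depth of roughly 13800000 to 19800000 fragments per sample. In bulk samples of this kind, fewer cells of a type and less RNA per cell cannot be told apart.

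Haemoglobin carries oxygen as a tetramer of alpha and beta globin chains, each holding a haem group. In the red cell lineage the globin genes are switched on together with the haem pathway by transcription factors such as GATA1 and KLF1, and the maturing cell then loses its nucleus while the reticulocyte, its youngest circulating form, still holds globin mRNA. The ganglion is supplied by blood vessels, and its own neurons and glia are not the usual site of haemoglobin synthesis. Within the set, Hba-a1 and Hba-a2 encode the adult alpha chain, Hbb-bs and Hbb-bt the adult beta chain, and Alas2 the first enzyme of haem synthesis in erythroid cells. Slc4a1 encodes band 3, the anion exchanger of the red cell membrane, and Epb42 encodes protein 4.2, which binds band 3 to the membrane skeleton.

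The sequence before each start site is shown as a description, and any link between its letters and the levels of the genes was not tested. RefSeq held a promoter on GRCm38.p6, the build of the deposited coordinates, for 6 of the 7 genes. The window is the 150 bases before the RefSeq start, 5′ to 3′ on the strand of the gene. Capitals mark 4 kinds of letters searched on both strands: CACCC, the letters known to bind KLF1, then CCAAT, then the TATA-like run ATATAA, and GATA hexamers, in which GATA follows an A or a T and precedes an A or a G; the neighbouring matches in Alas2 and in Hbb-bt abut and do not overlap.
Hbb-bs, chr7:103827929-103828078, minus strand: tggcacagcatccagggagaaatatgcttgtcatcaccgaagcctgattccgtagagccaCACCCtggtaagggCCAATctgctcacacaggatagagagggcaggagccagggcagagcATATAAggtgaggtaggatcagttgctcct
Hbb-bt, chr7:103813924-103814073, minus strand: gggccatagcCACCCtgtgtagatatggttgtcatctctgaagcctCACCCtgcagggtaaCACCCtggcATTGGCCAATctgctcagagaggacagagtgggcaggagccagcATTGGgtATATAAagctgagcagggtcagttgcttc
Hba-a2, chr11:32296342-32296491, plus strand: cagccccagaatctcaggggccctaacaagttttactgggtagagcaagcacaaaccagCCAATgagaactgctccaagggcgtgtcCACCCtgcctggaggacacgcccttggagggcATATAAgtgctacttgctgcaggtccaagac
Alas2, chrX:150547267-150547416, plus strand: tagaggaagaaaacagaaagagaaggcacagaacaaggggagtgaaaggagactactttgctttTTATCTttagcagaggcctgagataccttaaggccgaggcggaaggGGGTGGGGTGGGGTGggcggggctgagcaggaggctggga
Epb42, chr2:121036878-121037027, minus strand: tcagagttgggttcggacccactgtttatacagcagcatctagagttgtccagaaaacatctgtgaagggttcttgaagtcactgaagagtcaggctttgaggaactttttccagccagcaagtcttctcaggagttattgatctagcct

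The 4 globin promoters each held CACCC together with the CCAAT letters and with ATATAA, a combination found in 0.413% of the 32475 RefSeq promoters searched in the same window. Singly, CACCC was present in 37.5% of them, CCAAT in 24.4%, ATATAA in 5.36% and a GATA hexamer in 15.9%. The Hba-a1 promoter is not printed because it shared an identical run of 297 of its 300 bases with that of Hba-a2. The Alas2 window held 3 CACCC matches and 1 GATA hexamer, and the Epb42 window held none of these letters. A match is a description of the letters and not a bound site.

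The copies of each globin are nearly the same in sequence, and this limits which row a read could be given to. The coding sequences of Hba-a1 and Hba-a2, each of 429 bases, differed at 1 base, C381T, counted from the A of the start codon with the Hba-a1 base first. Those of Hbb-bs and Hbb-bt, each of 444 bases, also differed at 1 base, C417T, with the Hbb-bs base first. The stretches around these bases are shown with the differing base in capitals, taken from GENCODE transcripts of the same build.
Hba-a1, coding bases 351 to 410: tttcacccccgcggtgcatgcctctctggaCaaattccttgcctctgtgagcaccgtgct
Hba-a2, coding bases 351 to 410: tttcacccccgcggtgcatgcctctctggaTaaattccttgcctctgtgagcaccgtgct
Hbb-bs, coding bases 387 to 444: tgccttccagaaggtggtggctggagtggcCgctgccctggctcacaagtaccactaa
Hbb-bt, coding bases 387 to 444: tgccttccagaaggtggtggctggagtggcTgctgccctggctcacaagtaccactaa

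Of all 100-base windows of the Hba-a2 transcript, 74.5% occurred unchanged in that of Hba-a1, and 62.6% of the windows of the Hbb-bs transcript occurred unchanged in that of Hbb-bt. The table listed Hba-a1 on 2 rows of chromosome 11, from 32283672 to 32284486 and from 32296489 to 32297303, and both were at 0 in all 12 samples. It listed Hba-a2 on 2 rows over the same bases, from 32283675 to 32284493, here called locus 1, and from 32296492 to 32297310, called locus 2. RefSeq places Hba-a1 at locus 1 and Hba-a2 at locus 2, so an Hba-a1 value of 0 says only that its row is listed at 0, and the sum of the Hba-a2 rows stands for alpha-globin. In the same way the row of Hbb-b1, a further name for the beta-globin gene at the Hbb-bs position on chromosome 7, spanned 103826532 to 103827929 over the Hbb-bs row from 103826523 to 103827928. Hbb-bs took between 25.8% and 74.2% of the FPKM of that pair of rows, depending on the sample, so the split between them is uncertain and the 3 beta-globin rows, Hbb-bs, Hbb-b1 and Hbb-bt, were also summed.

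Hbb-bs was at 295, 110, 120 and 72.8 FPKM in intact replicates 1 to 4, at 100, 138, 23.4 and 51.6 FPKM in the unsorted replicates, and at 661, 837, 4155 and 6606 FPKM after the sort. All MACS-sorted samples lay above every other sample. In MACS-sorted replicate 4, Hbb-bs had the highest FPKM of all rows in the table, whereas in unsorted replicate 3 it ranked 2855. Hbb-bt, on chromosome 7 from 103812524 to 103813923, was at 109, 59.2, 62.0 and 43.3 FPKM in intact DRG, at 63.0, 59.0, 16.4 and 28.3 FPKM in unsorted DRG, and at 330, 172, 977 and 1728 FPKM in the 4 sorted samples. Again the MACS-sorted group did not overlap the others, and here replicate 2 rather than replicate 1 was lowest. The ratio of the MACS-sorted to the unsorted mean was 39.1 for Hbb-bs and 19.2 for Hbb-bt.

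The Hba-a2 row at locus 1 was at 197, 113, 126 and 87.5 FPKM in intact DRG, at 122, 119, 45.5 and 54.1 FPKM in unsorted DRG, and at 406, 909, 4517 and 3867 FPKM in MACS-sorted samples. The row at locus 2 had 123, 66.9, 80.2 and 57.4 FPKM in intact samples, 74.5, 74.2, 24.2 and 34.7 FPKM in unsorted samples and 205, 547, 2650 and 2677 FPKM in MACS-sorted samples. In both rows MACS-sorted replicates 3 and 4 were close to each other and replicate 1 was lowest. Locus 1 held 59.1% to 66.5% of the FPKM of both rows in each of the 12 samples, so the split of alpha-globin reads between the loci was nearly fixed while their sum ranged from 69.8 to 7167 FPKM. In MACS-sorted replicate 3 the locus 1 row had the highest FPKM of the table, ahead of Hbb-bs.

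Alas2, on chromosome X from 150547417 to 150570622, is a single-copy gene whose reads are not shared with the globins. It was at 11.4, 6.67, 6.95 and 4.02 FPKM in intact DRG, at 7.50, 7.82, 2.36 and 3.50 FPKM in unsorted DRG, and at 36.4, 45.6, 199 and 343 FPKM in replicates 1 to 4 of the sort. The MACS-sorted samples were again above all others, with replicates 3 and 4 high as for the globins. The MACS-sorted mean of 156 ± 145 FPKM (SD, n = 4) was 29.5 times the unsorted mean of 5.30 ± 2.78 FPKM (SD, n = 4).

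Slc4a1, on chromosome 11 from 102348820 to 102365281, was at 1.31, 1.06, 1.47 and 0.511 FPKM in intact DRG, at 0.905, 0.727, 0.231 and 0.241 FPKM in unsorted DRG, and at 27.96, 15.4, 26.0 and 90.3 FPKM in MACS-sorted DRG. Its MACS-sorted samples did not overlap the others, but their order was not that of the globins: replicate 2 was lowest, replicates 1 and 3 were alike and replicate 4 was highest. Epb42, which the table lists under its older symbol Epb4.2 on chromosome 2 from 121018217 to 121036755, was between 0.0730 and 0.169 FPKM in intact and between 0.0722 and 0.172 FPKM in unsorted samples. At the estimated depths 1 fragment of its transcript of 2695 bases is worth 0.0202 to 0.029 FPKM, so these are values of a few fragments and differences among them were not detectable at this depth. In the MACS-sorted replicates Epb42 was at 3.50, 1.60, 2.98 and 10.1 FPKM, in the order of Slc4a1. The ratio of the MACS-sorted to the unsorted mean was 75.9 for Slc4a1 and 43.6 for Epb42.

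**Figure D1:**
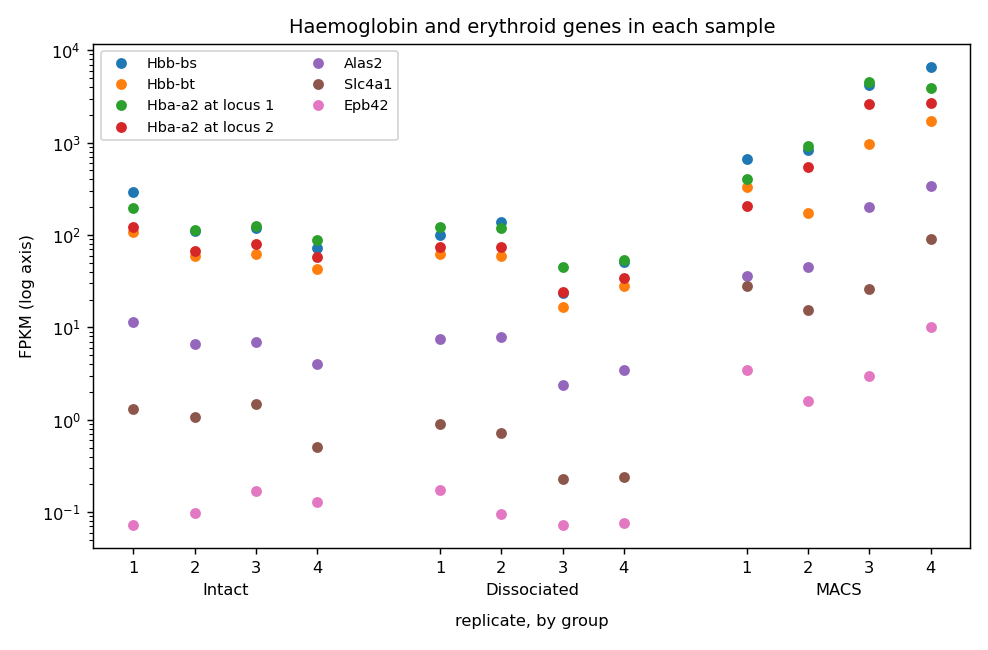
FPKM of the 7 rows above 0 in each of the 12 samples, on a log axis, with 1 colour for each gene and replicates in their groups. All 7 rows are higher in every MACS-sorted sample than in any other, and within the MACS-sorted group the globin rows and Alas2 separate replicates 3 and 4 from replicates 1 and 2, whereas Slc4a1 and Epb42 are lowest in replicate 2 and highest in replicate 4.

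All 7 member rows had MACS-sorted samples above all unsorted samples, a pattern that 18.0% of the 12283 rows averaging 1 FPKM or more also had, and nothing is read from this count because it is what the genes were chosen for. Together the members took 0.213%, 0.126%, 0.137% and 0.0905% of all FPKM in intact replicates 1 to 4 and 0.120%, 0.130%, 0.0365% and 0.0570% in unsorted replicates. In the MACS-sorted replicates the share was 0.551%, 0.792%, 4.103% and 5.15%, with a mean of 2.65 ± 2.33% (SD, n = 4). The SD of the MACS-sorted group was close to its mean, since its highest sample held 9.35 times the share of its lowest. Within that group Hbb-bs spanned 9.99-fold, Hbb-bt 10.1-fold, the alpha-globin rows 11.1-fold and 13.1-fold, Alas2 9.44-fold, Slc4a1 5.86-fold and Epb42 6.30-fold.

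Alas2 changed little in proportion to beta-globin compared with the change of the total. For each 1000 FPKM of the beta-globin rows there were 19.8, 22.8, 21.2 and 17.2 FPKM of Alas2 in intact DRG, 22.1, 22.0, 22.0 and 19.1 FPKM in unsorted DRG and 25.1, 35.1, 23.4 and 23.4 FPKM in MACS-sorted DRG. All 4 MACS-sorted values lay above every intact and unsorted value, with replicate 2 highest, and the ratio of the MACS-sorted to the unsorted mean was 1.25, while the summed beta-globin FPKM behind these ratios ranged from 107 to 14648. The ratio of alpha-globin to beta-globin FPKM was 0.485 to 0.651 over the 8 intact and unsorted samples and 0.421, 1.12, 0.841 and 0.447 in MACS-sorted replicates 1 to 4, so that replicates 2 and 3 lay above that range and replicates 1 and 4 below it. Slc4a1 had 2.28, 3.62, 4.47 and 2.19 FPKM per 1000 beta-globin FPKM in intact DRG, 2.67, 2.04, 2.16 and 1.32 FPKM in unsorted DRG and 19.3, 11.8, 3.05 and 6.16 FPKM in MACS-sorted DRG. The MACS-sorted replicates with the least beta-globin, 1 and 2, therefore had the most Slc4a1 relative to it. Epb42 followed Slc4a1 within the sort, at 12.5, 10.4, 11.5 and 11.2 FPKM per 100 FPKM of Slc4a1.

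**Figure D2:**
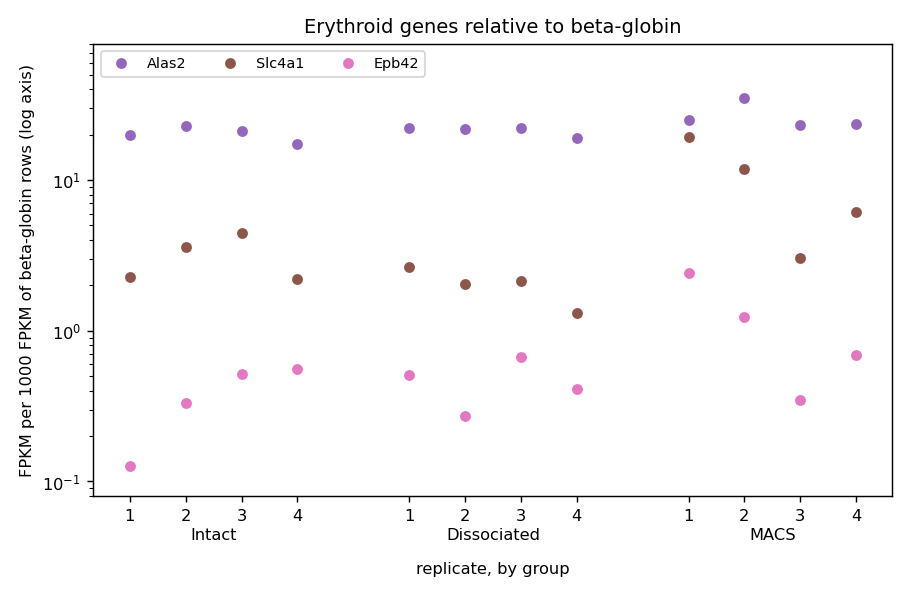
FPKM of Alas2, Slc4a1 and Epb42 per 1000 FPKM of the summed beta-globin rows, on a log axis, for each of the 12 samples. Alas2 stays between 17.2 and 25.1 in all samples but MACS-sorted replicate 2 (35.1), while Slc4a1 runs from 1.32 to 19.3 with its highest values in MACS-sorted replicates 1 and 2.

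The comparison of unsorted with intact DRG is between the groups without the sort, and it was not used to choose these genes. The groups differ in dissociation and also in the number of mice per sample. No member passed the test. Hbb-bs had a difference, unsorted minus intact, of -1.02 ± 0.58 (SE) in log2(FPKM + 0.1) and an adjusted p of 0.23 from limma, the test fitted over all genes. The differences were -0.83 for Hbb-bt, -0.69 and -0.75 for the Hba-a2 rows and -0.52 for Alas2, with adjusted p of 0.20, 0.20, 0.18 and 0.39. All 5 rows tested were lower on average in unsorted DRG. Of them 0 were called at an adjusted p under 0.05, against 22.5% of the 12392 genes tested (14.8% higher and 7.79% lower). At an unadjusted p under 0.05 the count was also 0, against 2777 genes higher and 1866 lower among the 12392. Slc4a1, Epb42 and Hba-a1 had means under 1 FPKM in these samples and were not tested. With no such filter the difference of Slc4a1 was -1.01, with an adjusted p of 0.16. In each member row the intact and unsorted samples overlapped.

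The proportions between the members were tested for the same pair of groups by exact permutation tests, two-sided, over 12 ratios and sums with 4 samples against 4. The smallest p such a test can give is 0.0286. Alas2 per 1000 beta-globin FPKM was 20.3 ± 2.35 in intact and 21.3 ± 1.46 in unsorted DRG (SD, n = 4 each, exact p = 0.457). The share of Hbb-bt in the beta-globin rows was 19.2 ± 0.743% and 16.5 ± 1.51% (exact p = 0.0571), and that of Slc4a1 per 1000 beta-globin FPKM was 3.14 ± 1.10 and 2.05 ± 0.556 (exact p = 0.143). For Hbb-bt the samples ran from 18.6% to 20.3% in intact and from 15.3% to 18.6% in unsorted DRG and overlapped only slightly. After adjustment over the 12 tests the smallest value was 0.343, and a single proportion could not pass in this design even if its groups were fully separated.

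Covariation was measured inside the groups, by fitting each gene in log2(FPKM + 0.1) to Hbb-bs with the 3 groups as a term, so that differences between group means do not enter. A slope of 1 means that a gene doubles when Hbb-bs doubles. Alas2 had a slope of 0.85 ± 0.053 (SE, adjusted p = 4.1e-05 from limma), Hbb-bt 0.81 ± 0.0805 (adjusted p = 0.0032), and the Hba-a2 rows 0.81 ± 0.095 and 0.88 ± 0.0995 (adjusted p = 0.0080 and 0.0076). Slc4a1 and Epb42 did not pass, with slopes of 0.52 ± 0.14 (adjusted p = 0.13) and 0.27 ± 0.16 (adjusted p = 0.43). Thus 4 of the 6 member rows compared with Hbb-bs were called, against 0.155% of all 12282 genes, and all 19 genes called had positive slopes. Of these rows, Hbb-bt could share reads with Hbb-bs, as its transcript windows show, whereas Alas2 and the Hba-a2 rows are other genes on other chromosomes. The Hba-a2 rows divide the reads of nearly identical copies in a nearly fixed split, so they amount to 1 measurement of alpha-globin and not to separate ones. Left without MACS-sorted replicate 4, the fit called 1 member row, Alas2, with a slope of 0.79 and an adjusted p of 0.0007, while the globin slopes were 0.75 to 0.89 with an adjusted p of 0.062.

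The slopes of different members were compared by permuting Hbb-bs within the groups, in 4 pairs picked after the slopes were seen. The slope of Epb42 minus that of Alas2 was -0.578, and minus that of Hbb-bt -0.533 (exact permutation p = 0.0021 and 0.00217, adjusted over the 4 pairs p = 0.00434 for both). For Slc4a1 the difference from Alas2 was -0.329 and from Hbb-bt -0.284, with exact permutation p of 0.0985 and 0.0927. Adjustment over the 4 pairs does not cover their choice after the slopes were seen. Outside the sort Epb42 was at 0.0722 to 0.172 FPKM, a few fragments per sample and close to the 0.1 added before the log. That addition flattens the slope of Epb42 there, so nothing is read from the p-values of its differences. The part of this in the differences was not tested.

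**Figure D3:**
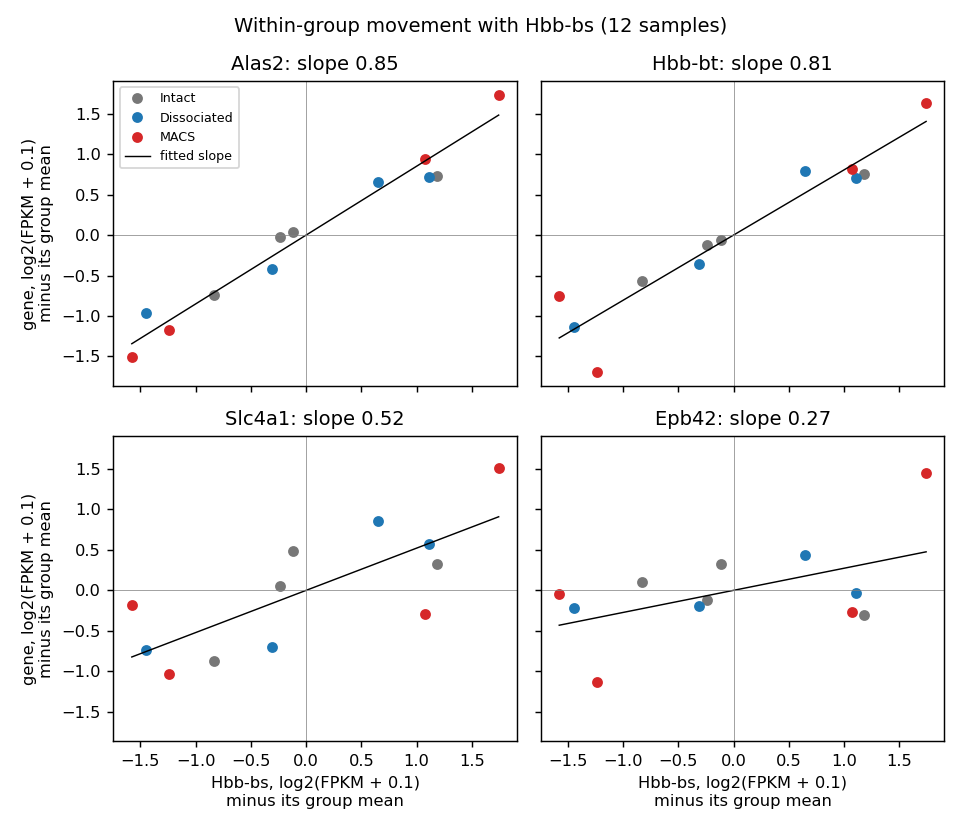
Each point is 1 of the 12 samples, with Hbb-bs on the x axis and the named gene on the y axis, both as log2(FPKM + 0.1) minus the mean of the group of the sample; the line is the fitted slope. Alas2 (slope 0.85) and Hbb-bt (slope 0.81) lie along the line in all groups, whereas Slc4a1 (0.52) and Epb42 (0.27) scatter around it.

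The 8 intact and unsorted samples, whose within-group differences the choice of members did not use, were also fitted alone. They had slopes on Hbb-bs of 0.71 ± 0.066 for Alas2, 0.74 ± 0.063 for Hbb-bt, and 0.60 ± 0.071 and 0.64 ± 0.064 for the Hba-a2 rows (SE; limma adjusted p = 0.023, 0.023, 0.045 and 0.025). These 4 rows were among 12 genes called, or 0.0968% of the 12391 genes tested, and here too the Hba-a2 rows amount to 1 measurement. The 4 calls held without unsorted replicate 4, and 3 of them held without intact replicate 1 or unsorted replicate 1. Without intact replicate 2, 3 or 4, or without unsorted replicate 2 or 3, 0 member rows were called, with slopes between 0.56 and 0.79 in every one of these fits. Intact replicate 1 and unsorted replicates 1 and 2 were the samples with high values, and unsorted replicate 3 had the lowest value in every globin row and in Alas2.

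Over the MACS-sorted samples alone, with 2 residual degrees of freedom, Alas2 was the single member called, at a slope of 0.96 ± 0.044 (SE, limma adjusted p = 0.0015). The slopes of Hbb-bt and the Hba-a2 rows were 0.85, 0.97 and 1.06, with adjusted p of 0.23, 0.18 and 0.17. Those of Slc4a1 and Epb42 were 0.47 and 0.45, with an adjusted p of 0.65 for each. Of 11391 genes, 5 were called, or 0.0439%. Besides Alas2 these were Bpgm, Ube2l6, Hbb-b1 and Snora28, named after their values were seen. Bpgm (slope 0.89) is the enzyme that makes the regulator of oxygen release in red cells. Ube2l6 (slope 0.71) is a ubiquitin-conjugating enzyme of late erythroid cells. Hbb-b1 (slope 1.28) has a row that overlaps Hbb-bs. Snora28, with the largest slope (3.29), was at 0, 0, 55.6 and 94.8 FPKM in replicates 1 to 4 of the sort. It was also at 0 in some intact and unsorted samples and at 58.8 FPKM in intact replicate 1. Bpgm was at 15.0, 17.7, 70.3 and 121 FPKM in replicates 1 to 4 of the sort and Ube2l6 at 23.0, 27.5, 79.4 and 125 FPKM, both in the order of Hbb-bs and Alas2. That order of the 4 samples was found in 4.97% of the 12283 genes averaging 1 FPKM or more, and the order of Slc4a1 in 6.38%.

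Other genes of the red cell were examined in 5 lists with 60 rows, chosen with earlier results of these data known. Of these rows, 56 were tested between MACS-sorted and unsorted DRG. Among them 34 rose and 7 fell, against 18.8% and 27.7% of the 12038 genes tested. Of the 56 tested, 15 averaged under 1 FPKM in unsorted DRG. These passed the level filter only through the sorted samples and had to differ, so they are given by their values, with no p. Of the other 41, which averaged 1 FPKM or more in unsorted DRG, 19 rose and 7 fell. The count of 34 is therefore not read as a result, and the shares of all genes under that limit were not counted. The membrane list had 17 genes tested of 18, with 11 higher and 3 lower, and 4 higher and 3 lower among the 10 at 1 FPKM or more in unsorted DRG. Rhag, of the Rh complex, was at 0 to 0.0559 FPKM in unsorted samples and at 4.15, 3.09, 4.61 and 12.5 FPKM in replicates 1 to 4 of the sort. Rhd, of the same complex, was at 0 to 0.225 FPKM and at 9.63, 3.64, 6.49 and 23.3 FPKM, and Kel, a blood group protease, at 0 to 0.0486 FPKM and at 3.08, 1.48, 3.23 and 8.57 FPKM. All 3 were lowest in MACS-sorted replicate 2 and highest in replicate 4, as were 11 of the 18 genes of the list and 13.3% of the 12283 genes averaging 1 FPKM or more.

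Of the 8 genes for erythroid transcription factors and the erythropoietin receptor, 6 were tested and 5 were higher and 0 lower, against 18.8% and 27.7% of all genes tested. The count of 5 was 3 without MACS-sorted replicate 4 and 0 with a filter at 5 FPKM or under the study's criteria. Of the 5, 4 averaged under 1 FPKM in unsorted DRG, passed the level filter only through the sorted samples and had to rise. Nothing is read from the count of 5, and of the 2 genes at 1 FPKM or more in unsorted DRG, 1 rose. Klf1, a factor that binds CACCC letters, was at 0 to 0.127 FPKM in unsorted samples and 3.50, 1.63, 2.73 and 10.4 FPKM after the sort. Gata1, the master regulator of red cell genes, was at 0 to 0.0310 FPKM in unsorted samples and at 1.39, 0.694, 1.20 and 5.08 FPKM in the sorted ones. Nfe2 was at 0 to 0.324 FPKM in unsorted samples and at 2.25, 1.06, 2.79 and 9.81 FPKM after the sort, and Tal1, which acts with Gata1, at 0.206 to 0.463 FPKM and at 2.60, 1.13, 2.12 and 6.97 FPKM. In 7 of the 8 genes MACS-sorted replicate 2 was lowest and replicate 4 highest, a pattern present in 13.1% of the 16413 rows above 0 in a MACS-sorted sample. Of the 5 tested, 0 had a slope on Hbb-bs that passed in limma.

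Among the 8 haem synthesis enzymes other than Alas2, 5 rose and 1 fell, against 18.8% and 27.7% of the 12038 genes tested. Cpox was at 10.3 to 11.9 FPKM in unsorted samples and at 22.7, 15.8, 20.7 and 27.5 FPKM after the sort. Cpox, Ppox and Fech, the last enzymes of the pathway, rose by 0.94, 0.92 and 0.69 on the log2 scale (limma adjusted p = 6.1e-04, 0.0093 and 0.043). These are enzymes of every cell, and each was above 2 FPKM in all samples. The iron list had 4 of 9 genes higher and 2 lower, against the same shares of all genes. Slc25a37, which brings iron into mitochondria of erythroid cells, was at 2.78 to 3.73 FPKM in unsorted samples and at 14.9, 7.20, 17.5 and 49.1 FPKM in MACS-sorted samples, a difference of 2.44 ± 0.46 (adjusted p = 0.0019). Abcb10 and Ftl1 rose by 0.64 and 0.60 (limma adjusted p = 0.030 and 2.6e-04). Trf, the transferrin gene, was at 6.57 to 12.9 FPKM in unsorted samples and at 0.675, 0.321, 0.160 and 1.13 FPKM after the sort. It passed the level filter only through the unsorted samples and had to fall.

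The list of red cell enzymes and reticulocyte genes had 16 of 17 rows tested, with 9 higher and 1 lower, and 5 higher and 1 lower among the 12 at 1 FPKM or more in unsorted DRG. Of all genes tested, 18.8% were higher and 27.7% lower. Hemgn, a nuclear protein of haematopoietic cells, was at 0 to 0.200 FPKM in unsorted samples and at 8.49, 3.78, 6.88 and 27.0 FPKM in MACS-sorted samples. Car1, a carbonic anhydrase of red cells, was at 0.159 to 0.344 FPKM and at 8.88, 2.71, 3.21 and 9.54 FPKM, and Trim10 at 0 to 0.303 FPKM and at 5.88, 2.71, 6.27 and 23.7 FPKM. Isg20 rose from 1.07 to 1.99 FPKM in unsorted samples to 7.83, 12.3, 21.9 and 50.0 FPKM, a log2 difference of 3.61 ± 0.49 (SE, limma adjusted p = 2.3e-04). It shared the sample order of Hbb-bs, whereas Hemgn and Car1 shared that of Slc4a1. Of the further globin genes, Hbb-b1, whose row overlaps Hbb-bs, is given with no test, at 67.3 to 176 FPKM in unsorted samples and at 461, 291, 3390 and 6314 FPKM after the sort, and Hbq1b, a theta-globin gene, was at 0.194 to 0.541 FPKM and at 1.05, 1.69, 1.15 and 4.01 FPKM. The embryonic globin genes Hbb-bh1, Hbb-bh2, Hbb-y and Hba-x were listed at 0 in all 12 samples.

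Of 6 cell cycle genes, 3 were tested between unsorted and MACS-sorted DRG and all 3 were higher, against 18.8% of the 12038 genes tested. With a filter at 5 FPKM, which leaves fewer genes to test, 0 were higher. Mki67 and Top2a averaged under 1 FPKM in unsorted DRG, passed the level filter only through the sorted samples and had to rise. Mki67, a marker of dividing cells, was at 0.167 to 0.450 FPKM in unsorted samples and at 6.33, 2.69, 5.38 and 16.8 FPKM in MACS-sorted samples, and Top2a at 0.165 to 0.448 FPKM and at 2.84, 1.81, 2.28 and 6.10 FPKM. Birc5, the member that averaged over 1 FPKM in unsorted DRG, rose by 1.73 ± 0.38 on the log2 scale (SE, limma adjusted p = 0.0047). All 6 genes of the list had the sample order of Slc4a1, with replicate 2 lowest and replicate 4 highest. That order was found in 6.38% of the 12283 genes averaging 1 FPKM or more. The summed level of the 6 cell cycle genes was 2.20 to 2.73 FPKM in unsorted, 3.18 to 4.35 FPKM in intact and 8.63 to 41.2 FPKM in MACS-sorted samples.

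**Figure D4:**
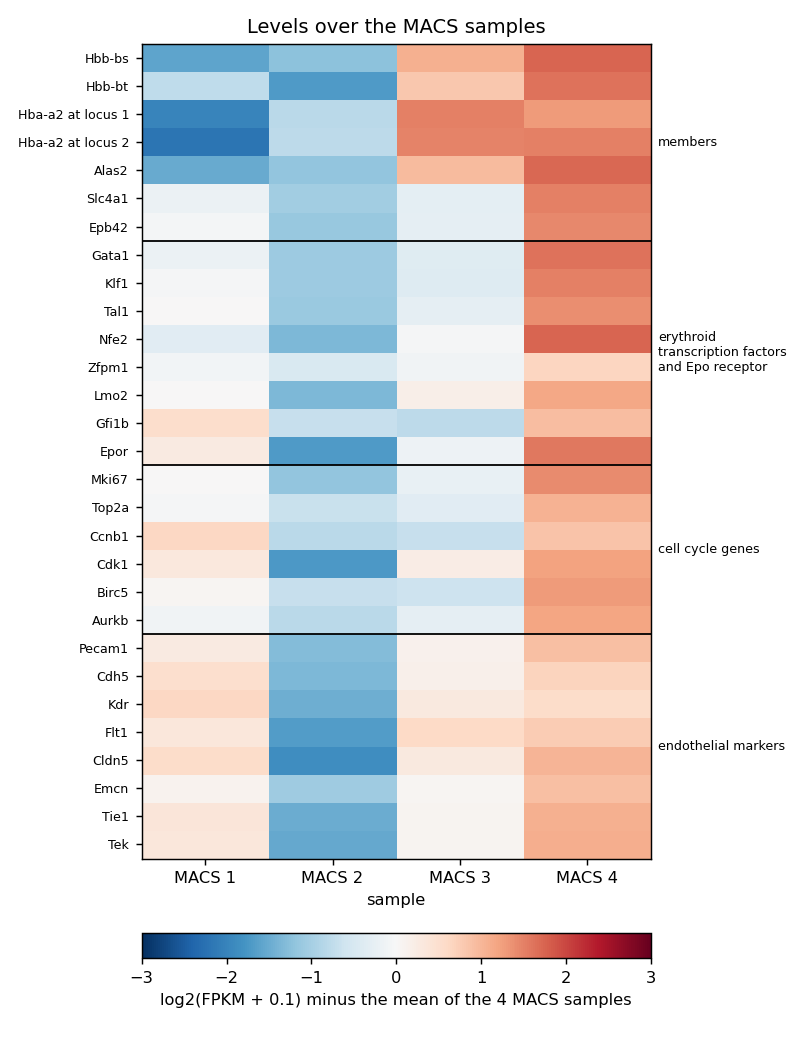
Each cell shows the log2(FPKM + 0.1) of a gene in 1 MACS-sorted sample minus its mean over the 4 samples, from blue (lower) to red (higher), for the member rows above 0 and for 3 lists. Globin rows and Alas2 are low in both replicates 1 and 2, whereas Slc4a1, Epb42, the transcription factors, the cell cycle genes and the endothelial markers have their lowest values in replicate 2, with 1 exception among the transcription factors, and most have their highest in replicate 4.

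Markers of other cells were read in the same samples. The 8 endothelial markers, among them Cldn5, Emcn, Cdh5 and Pecam1, summed to 63.1, 16.2, 55.6 and 89.8 FPKM in replicates 1 to 4 of the sort. Of them, 7 were lowest in replicate 2 and highest in replicate 4, as were 13.3% of the 12283 genes averaging 1 FPKM or more. In unsorted DRG the endothelial markers summed to 52.7 to 66.4 FPKM, and 0 of the 8 passed the test between MACS-sorted and unsorted DRG (limma adjusted p = 0.36 to 0.95 for the 4 named). Without MACS-sorted replicate 2, Cldn5 was higher in the sorted samples by 0.568 on the log2 scale (adjusted p = 0.022). Satellite glia markers summed to 118, 89.8, 128 and 195 FPKM and Schwann cell markers to 570, 518, 592 and 1206 FPKM in replicates 1 to 4 of the sort, again with replicate 2 lowest and replicate 4 highest, at levels far under their unsorted sums of 2117 to 2671 and 2019 to 3269 FPKM. Apoe, Kcnj10, Fabp7 and Cdh19 of the glia fell by 5.63 to 7.02 on the log2 scale, and the log2 differences of Prx and Ncmap of Schwann cells were -4.68 and -3.94 (limma adjusted p = 8e-06 and 2.5e-05). Kcnj10 and Cdh19 averaged under 1 FPKM in MACS-sorted DRG, passed the level filter only through the unsorted samples and had to fall. The part of these cells in the order of Slc4a1 and Epb42 over the MACS-sorted samples was not tested.

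Of the markers of platelets and white blood cells, few reached the level needed for limma's test between unsorted and MACS-sorted DRG, and none of those tested rose. Of these, the macrophage and platelet genes and the neutrophil genes Ngp and Camp averaged under 1 FPKM in MACS-sorted DRG. They passed the level filter only through the unsorted samples and had to fall, so nothing is read from the counts that hold them. Of 10 macrophage and monocyte markers, 4 were tested and all 4 fell, and their sum was 14.0 to 29.0 FPKM in unsorted and 0.391 to 4.38 FPKM in MACS-sorted DRG. The complement genes C1qa, C1qb and C1qc and Csf1r were at most 0.465 FPKM in any MACS-sorted sample. Of 10 platelet markers, 2 were tested and both fell, with Pf4, platelet factor 4, listed at 0 in 3 of 4 MACS-sorted samples, and of 10 neutrophil markers 6 were tested, of which 4 fell. S100a8, one of these, was at 24.3, 3.77, 0.909 and 3.72 FPKM after the sort. Lcn2 did not pass, at 1.63 to 2.69 FPKM in unsorted samples and at 0.440, 3.13, 0.702 and 11.4 FPKM after the sort. The lymphocyte markers Ptprc, Cd79b, Cd79a and Ms4a1 were at most 1.40 FPKM in each MACS-sorted sample, and none of the 8 genes of that list passed the level filter. The T cell genes Cd3d, Cd3e and Cd3g, untested and near 0, were at 0.592, 1.41 and 0.893 FPKM in replicate 4 of the sort and no higher than 0.0998, 0.456 and 0.144 FPKM in unsorted samples. Lcn2 and these 3 genes were named after their values were seen. Pan-neuronal markers were present in all groups, with Avil and Elavl4 higher by 0.61 and 0.36 in MACS-sorted DRG and Snap25 and Tubb3 lower by 0.94 and 0.38 (log2; limma adjusted p = 6.3e-04, 0.0019, 7.7e-06 and 0.034).

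**Figure D5:**
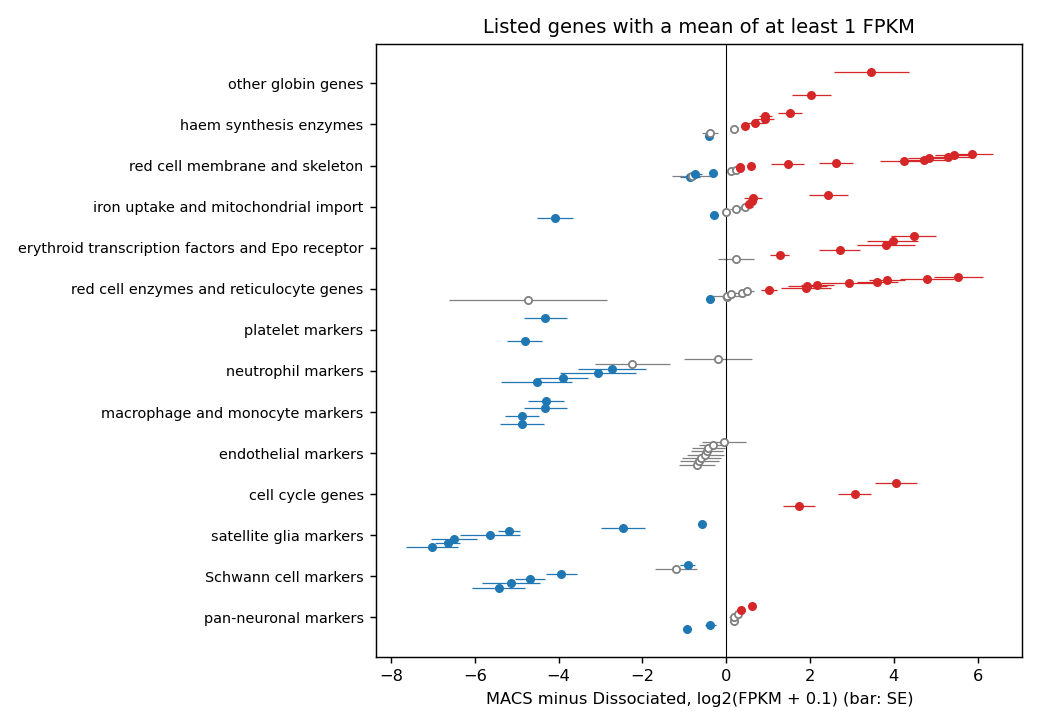
Each point is 1 listed gene averaging 1 FPKM or more, with its SE as a bar. It lies at the difference between MACS-sorted and unsorted samples in log2(FPKM + 0.1). Red and blue points passed an adjusted p under 0.05 and open points did not. Genes averaging under 1 FPKM in either group passed the level filter only through the other group and had to differ. Nothing is read from their colours, or from that of Hbb-b1, whose row overlaps Hbb-bs. Erythroid and cell cycle genes reach differences such as 3.61 for Isg20 and 1.73 for Birc5, platelet, neutrophil, macrophage and most glial markers lie below 0, and endothelial markers stay near 0.

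Marker sums of other blood cells are given for the intact and unsorted groups beside the covariation. Macrophage markers summed to 86.2, 42.8, 44.2 and 44.9 FPKM in intact and to 29.0, 28.1, 14.0 and 16.8 FPKM in unsorted replicates 1 to 4. Intact replicate 1 and unsorted replicates 1 and 2 were high as for Hbb-bs, whereas intact replicate 4, lowest of its group for Hbb-bs, was not low. In the fit of all 12 samples, C1qb was the 1 of 6 macrophage markers tested with a called slope on Hbb-bs (0.56 ± 0.069, SE, limma adjusted p = 0.012). Of 2 platelet and 7 neutrophil markers tested, 0 had a called slope, and 0 lymphocyte markers were tested. Platelet markers summed to 17.4, 12.2, 13.5 and 10.5 FPKM in intact and to 12.1, 10.7, 7.27 and 9.05 FPKM in unsorted samples. Neutrophil markers summed to 112, 108, 148 and 44.8 FPKM in intact and to 98.6, 103, 43.3 and 47.3 FPKM in unsorted samples. Their unsorted order was that of Hbb-bs, and intact replicate 4 was lowest, but intact replicate 3 was highest. Lymphocyte markers summed to 2.37 to 7.85 FPKM in intact samples, in the order of Hbb-bs, and to 0.953 to 4.89 FPKM in unsorted ones. There replicates 1 and 2 were high as for Hbb-bs, but replicate 4 was lowest. Outside the members the fit of the 8 intact and unsorted samples called Ackr3, Col3a1, Ctsk, Eln, Mmp2, Nov, Ppic and Spink2, of which Col3a1 and Eln encode matrix proteins of connective tissue and Mmp2 and Ctsk proteases that cut them. These 8 genes were named after their values were seen, and their part in the covariation of the members was not tested.

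The genes most like Hbb-bs in their within-group movement, outside the members and lists, were Slc40a1, Lpcat2, Rftn2, Ackr3, Zfp810, Ska2, Sostdc1, Plin3, Itpripl2 and Ccdc71l, by Pearson's r of the deviations over the 12 samples. Their r ran from 0.923 to 0.981, and 0.204% of 12282 genes reached 0.9. Among the members r was 0.982 for Alas2, 0.950 for Hbb-bt, 0.937 and 0.933 for the Hba-a2 rows, 0.762 for Slc4a1 and 0.517 for Epb42. Slc40a1, which encodes the iron exporter ferroportin, had the highest r of the 10, but its levels stayed between 0.780 and 2.24 FPKM over all samples and its slope of 0.30 was not called (limma adjusted p = 0.079). Ackr3, Sostdc1, Plin3 and Ska2 had called slopes of 0.43, 0.33, 0.30 and 0.27 (adjusted p = 0.027, 0.023, 0.038 and 0.040). Lpcat2, Rftn2, Ackr3 and Sostdc1 were at most 0.475 FPKM in every MACS-sorted sample, so that there their values were near the pseudocount of 0.1.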

How the data were processed

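The authors aligned directional, poly(A)-selected 100-base reads to mm10 with TopHat2, merged lanes with SAMtools and made the deposited FPKM table with Cufflinks 2.1.1, keeping reads with up to 2 alignments, which bears on near-identical globin copies; tool names follow the submitters' processing notes and the study's methods. Before its later analyses the study set aside genes higher in MACS-sorted samples that a published erythrocyte transcriptome also held above a set level. Its stated reason was contamination of the sorted samples with red blood cells, which was not tested here. The deposited table holds these genes. The members and lists were chosen with earlier results of these data known. Genes named are the members, at most 4 per list (called genes with the largest change, then the highest mean FPKM) and the 10 genes most like Hbb-bs. Testing used log2(FPKM + 0.1) in limma 3.58.1 (R 4.3.3) with an intensity trend, for genes averaging 1 FPKM or more over the samples fitted, Benjamini-Hochberg adjustment over all genes and a threshold of 0.05; single values had exact permutation tests. The study's CuffDiff needs reads. The p-values rest on the spread between these samples, each of 1, 2 or 8 mice by group. This is a spread between single animals only in intact DRG. Depth was estimated from genes with 1 transcript, whose values should be whole fragments (80.9% to 87.7% of low values within 0.15 of a whole number, for an assumed fragment length of 200 bases). On simulated data the fits recovered 88.9% of 199 changed genes for dissociated against intact (12289 genes), 87.3% of 197 for MACS against dissociated (11729 genes) and 94.4% of 197 for the slope (11976 genes). Alternatives were other pseudocounts, filters, scalings, covariates and sample sets, no trend, a replicate block, unsorted replicates 1 and 2 averaged, and each replicate left out. Python 3.11.15, pandas 2.3.3 and matplotlib 3.10.9 were used for tables and figures. Some genes of the lists are counted but not reported singly here.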

Additional observations from a re-analysis of the deposited data

Results flagged for a closer look

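Of the 66 groups of 4 samples examined, 4 held a sample far from the other 3, by the gap to its nearest neighbour relative to the whole range, about the 1 in 20 that chance gives. Slc4a1 was at 90.3 FPKM in MACS-sorted replicate 4, with a gap of 0.832 of the range. Alas2 was at 35.1 FPKM per 1000 beta-globin FPKM in MACS-sorted replicate 2 (gap 0.854) and at 19.1 FPKM in unsorted replicate 4 (gap 0.938). Hbb-bt held 22.7% of the FPKM of the beta-globin rows in MACS-sorted replicate 1 (gap 0.845), where the share rests on how reads were split between nearly identical copies.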

How the results depend on the processing

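The members' differences between unsorted and intact DRG stayed uncalled under every alternative run. In unsorted against intact DRG, 1828 genes were higher and 965 lower. This was 1082 and 610 with unsorted replicates 1 and 2 averaged, and 1175 and 531 with all 12 samples in 1 fit. It was 531 and 342 under the study's 3 criteria (adjusted p, a log2 change of 0.5 and 5 FPKM), and 514 lower with a filter at 5 FPKM. Leaving out 1 replicate gave 1052 to 2724 higher and 498 to 1666 lower. For MACS-sorted against unsorted DRG, 2261 genes rose and 3331 fell; this was 4039 and 2767 with quantile normalization, which moved the median of all genes from -0.04 to 0.10, 2863 and 2957 with size factors, 2744 and 3075 without globin and member genes, 981 and 1505 under the 3 criteria, and 2092 lower with the filter at 5 FPKM. The 34 erythroid genes that rose, of which 15 had to rise, became 21 with that filter and 22 under the 3 criteria. The 7 that fell became 3 under the 3 criteria. The 5 erythroid factor genes, of which 4 had to rise, became 0 with that filter or the 3 criteria, and 3 without MACS-sorted replicate 4.

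Of slopes on Hbb-bs, 19 genes were called, against 4 with a pseudocount of 1, 6 with 0.01, 7 with no filter, 12 with the filter at 5 FPKM, 6 with quantile normalization, 10 without globin and member genes, 9 with the averaged replicates, 54 with Alas2 as covariate, 5 in MACS-sorted samples and 12 in the others alone, and 155 with the sum of Hbb-bs and Hbb-b1, chosen after seeing the data. Leaving out 1 replicate gave 1 (without MACS-sorted replicate 4) to 99 (without replicate 3), and 48 without replicate 1. Member rows called were 4, but 1 in MACS-sorted samples alone and 1 to 4 with a replicate left out; over the intact and unsorted samples the count was 0 to 4, a test also added after seeing the data. The cause of these changes was not tested.

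Between MACS-sorted and unsorted DRG, Cldn5 had a log2 difference of -0.05 that became 0.01 with size factors and 0.068 with quantile normalization, and ran from -0.391 to 0.568 with a replicate left out, the highest passing (adjusted p = 0.022). Emcn then ran from -0.621 to 0.03 and Pecam1 from -0.735 to 0.003, each highest without MACS-sorted replicate 2. A replicate block called 1439 higher and 848 lower genes in unsorted than in intact DRG. It called 2073 and 3098 after the sort, 37 erythroid genes higher and 10 slopes. Samples with the same number did not deviate together (correlations of -0.143 to 0.067, against -0.256 to 0.170 for different numbers), so the block pairs nothing. Depth limits Epb42, and Gata1 and Klf1, outside the sorted samples to a few fragments.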
